A study of Mus musculus with 7 samples.

Results

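Oligodendrocyte precursor cells (OPCs) of the posterolateral cortical amygdala (plCoA) are described here from single-nucleus RNA sequencing of its anterior (aplCoA) and posterior (pplCoA) domains. Of 51115 nuclei in all, 3088 were taken as OPCs. A barcode counted as a nucleus with at least 1000 genes and at most 30000 unique molecular identifiers (UMIs, each standing for 1 captured transcript), and as an OPC with at least 3 UMIs of Pdgfra and Cspg4 together and at most 1 UMI in each of 3 sums, that of Enpp6 and Mog, that of the neuronal genes Slc17a7, Slc17a6, Gad1 and Gad2, and that of the fibroblast genes Slc6a13 and Col1a2. The nuclei were chosen by these measured UMIs, so the levels of these genes are given without a test. All animals were wild-type C57BL6J males, 8 weeks old by their labels, kept without sensory stimulation for a day before sacrifice, and neither domain received a treatment or carried an allele. Each of the 7 libraries held nuclei of several mice pooled after microdissection, sorted by a DNA dye. aplCoA replicate 1 was sequenced in 2 libraries, which were summed, so that each domain had 3 replicates, and no replicate stands for a single animal.

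OPCs are the dividing glia of the adult brain that give rise to myelinating oligodendrocytes and that tile the grey matter throughout life. The receptor tyrosine kinase encoded by Pdgfra receives platelet-derived growth factor, a mitogen that keeps the cells in the precursor state, and signals through adaptors and the MAP kinase cascade. The proteoglycan NG2, encoded by Cspg4, marks their surface, the transcription factors Olig1, Olig2 and Sox10 hold their lineage, and Notch signalling through Hes genes delays their maturation. OPCs receive synapses from neurons and carry AMPA, kainate and GABA receptors for them.

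OPC nuclei numbered 678, 253 and 545 in aplCoA replicates 1 to 3 and 699, 428 and 485 in pplCoA replicates 1 to 3. The median OPC nucleus had 4135 UMIs and 2002 genes, and the summed OPC UMIs of a replicate ranged from 1316090 to 3366590, in libraries of 50812605 to 129624583 UMIs. Median UMIs per OPC nucleus were 4461, 4727 and 4013 in aplCoA and 4387, 3684.5 and 3607 in pplCoA. Pairs of libraries shared between 5 and 36 nuclear barcodes. Levels are given below as CPM, the UMI counts of the summed OPC nuclei of a replicate scaled to the usual fixed total, with SD over replicates.

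The label was checked against genes that the gate did not use. Among the 3040 nuclei of the gate with a Pdgfra UMI, 99.5% had a UMI of Lhfpl3, 72.9% of Sox10, 62.6% of Olig1, 58.4% of Olig2, 53.3% of the adaptor gene Shc4 and 33.6% of Susd5. Among 20852 nuclei that passed the other limits of the gate without a UMI of Pdgfra or Cspg4, at a median of 3896 UMIs, the shares were 30.1% for Lhfpl3, 1.74% for Sox10, 4.19% for Olig1, 3.27% for Olig2, 1.47% for Shc4 and 0.417% for Susd5, which stand as background. The other 48 nuclei passed on Cspg4 alone. Of these, 22.9% had a UMI of the pericyte gene Rgs5, against 0.197% of the nuclei with Pdgfra. The vessel markers Abcc9 and Vtn were found in 16.7% and 22.9% of the 48. Genes of OPCs were found in them too, Lhfpl3 in 75%, Sox10 in 47.9%, Shc4 in 41.7%, Olig2 in 39.6%, Susd5 in 31.3% and Olig1 in 27.1%. Pericytes are known to express Cspg4 too. At the threshold, 470 nuclei had exactly 3 UMIs of Pdgfra and Cspg4, of which 95.7% had Lhfpl3, and 427 nuclei just outside it had 2 UMIs, of which 82.7% had Lhfpl3. Of the OPC nuclei, 40 also had the UMIs that mark astrocytes here, 21 had those that mark microglia, and 148 lay among the 4210 highest doublet scores of all nuclei.

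Markers of other cell types were low but present in the OPC sums. Leaving out the genes used by gates, the 7 astrocyte markers summed to 851 to 1092 CPM in aplCoA and 1014 to 1134 CPM in pplCoA, the 5 microglial markers to 88.9 to 165 CPM and 124 to 191 CPM, and the 7 glutamatergic markers to 119 to 195 CPM and 54.3 to 119 CPM. Barcodes with fewer than 100 UMIs, which hold RNA free in the suspension rather than a nucleus, were summed in the same way and are used below as the level of free RNA.

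The promoters of Lhfpl3 and Hes5 are printed because these genes carry results below, Lhfpl3 as the most abundant of the leading OPC genes and Hes5 as a gene that was higher in the OPCs of aplCoA. Each runs from 250 bases before to 50 bases after the start of the gene in RefSeq (GRCm38.p6, plus strand), the first at chr5:22745804-22746103 and the second at chr4:154960673-154960972. Both strands were searched, and capitals mark, in Lhfpl3, the E-box CAGCTG, a palindrome bound by basic helix-loop-helix factors such as those of the Olig and Ascl families, and in Hes5 the letters TGGGAA on either strand, the core recognized by RBPJ, the DNA-binding partner of Notch.
Lhfpl3: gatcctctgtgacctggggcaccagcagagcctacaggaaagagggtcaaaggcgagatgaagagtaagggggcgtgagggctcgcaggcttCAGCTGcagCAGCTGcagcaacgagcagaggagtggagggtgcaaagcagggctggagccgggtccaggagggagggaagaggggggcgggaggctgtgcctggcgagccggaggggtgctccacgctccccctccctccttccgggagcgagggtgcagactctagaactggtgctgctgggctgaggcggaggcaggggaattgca
Hes5: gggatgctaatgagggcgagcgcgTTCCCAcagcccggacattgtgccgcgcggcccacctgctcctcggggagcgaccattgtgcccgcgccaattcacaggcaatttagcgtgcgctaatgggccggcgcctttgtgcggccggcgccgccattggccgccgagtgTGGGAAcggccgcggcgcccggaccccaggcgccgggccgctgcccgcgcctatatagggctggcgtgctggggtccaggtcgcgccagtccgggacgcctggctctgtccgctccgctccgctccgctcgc
The E-box stood 158 and 149 bases before the start of Lhfpl3, and the RBPJ core 226 and 82 bases before the start of Hes5. Of all 32851 promoters of this length, 16.3% held CAGCTG and 25.6% held TGGGAA. Promoters were matched for 12 of the 20 leading OPC genes named below, and 3 of their 17 promoters held CAGCTG, a share of 17.6%. Such a match is a run of letters and not a measured binding site.

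The OPC program was set against 6 other classes of nuclei gated in the same way, namely newly formed oligodendrocytes (NFOLs, 271 nuclei), mature oligodendrocytes (MOLs, 1358), astrocytes (3039), glutamatergic neurons (11906), GABAergic neurons (4027) and microglia (3408). Since gates chose the nuclei, these contrasts are described without a test. A gene was counted as higher in OPCs where all 6 OPC replicates lay above all 6 of the other class and the means differed at least 4-fold. By this measure, 649 genes (8.64% of those compared) were higher in OPCs than in NFOLs, 914 (13.9%) than in MOLs, 618 (9.05%) than in astrocytes, 638 (6.28%) than in glutamatergic neurons, 484 (5.24%) than in GABAergic neurons and 1259 (17.2%) than in microglia. Only 47 genes met it against all 6 classes. Of the 51115 nuclei, 24018 fell in no class and were not compared. Fibroblasts and cells of vessels had no class here, so OPC genes were not set against them.

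The 20 genes that stood furthest above the class nearest to OPCs, among genes of at least 50 CPM, were led by Tmem255b, which had 52.3 ± 8.35 CPM (SD, n = 6) in OPCs and 1.87 CPM in NFOLs, the next class. The membrane-anchored metalloproteinase gene Mmp15 had 101 ± 14.6 CPM in OPCs and 3.83 CPM in astrocytes. Kcnh8, which encodes a voltage-gated potassium channel, had 366 ± 23.8 CPM in OPCs and 13.9 CPM in NFOLs. For each of these, the fold over the next class was above 26, from 26.2 for Kcnh8 to 27.9 for Tmem255b.

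Several of the leading genes belong to signalling and the extracellular matrix. The secreted guidance cue Ntn1 had 203 ± 16.7 CPM in OPCs and 15.8 CPM in astrocytes, the next class. Spry4, a feedback inhibitor of receptor tyrosine kinase signalling, had 73.3 ± 7.20 CPM against 6.27 CPM in astrocytes. The AMPA receptor auxiliary subunit Cacng4 had 623 ± 50.8 CPM against 64.0 CPM in NFOLs. Matrix genes on the list were Emid1, Sulf1, which removes sulfate from heparan sulfate, and Matn4, with 359 ± 30.6, 125 ± 12.0 and 221 ± 12.0 CPM in OPCs. The zinc finger factor Myt1 had 434 ± 25.9 CPM and the transcription factor Ebf1 230 ± 24.6 CPM. The next class for Ebf1 was glutamatergic neurons, with 69.7 CPM in aplCoA and 5.39 CPM in pplCoA, so that within aplCoA the OPCs, at 235 CPM, were less than 4-fold above it. The remaining leaders were Tafa4, Gm2164, which is annotated as antisense, Gucy2f, Cdo1, Rlbp1, B9d1, Megf11, Lhfpl3 and Stk32a, with folds over the next class of 7.12 or more.

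**Figure D1:**
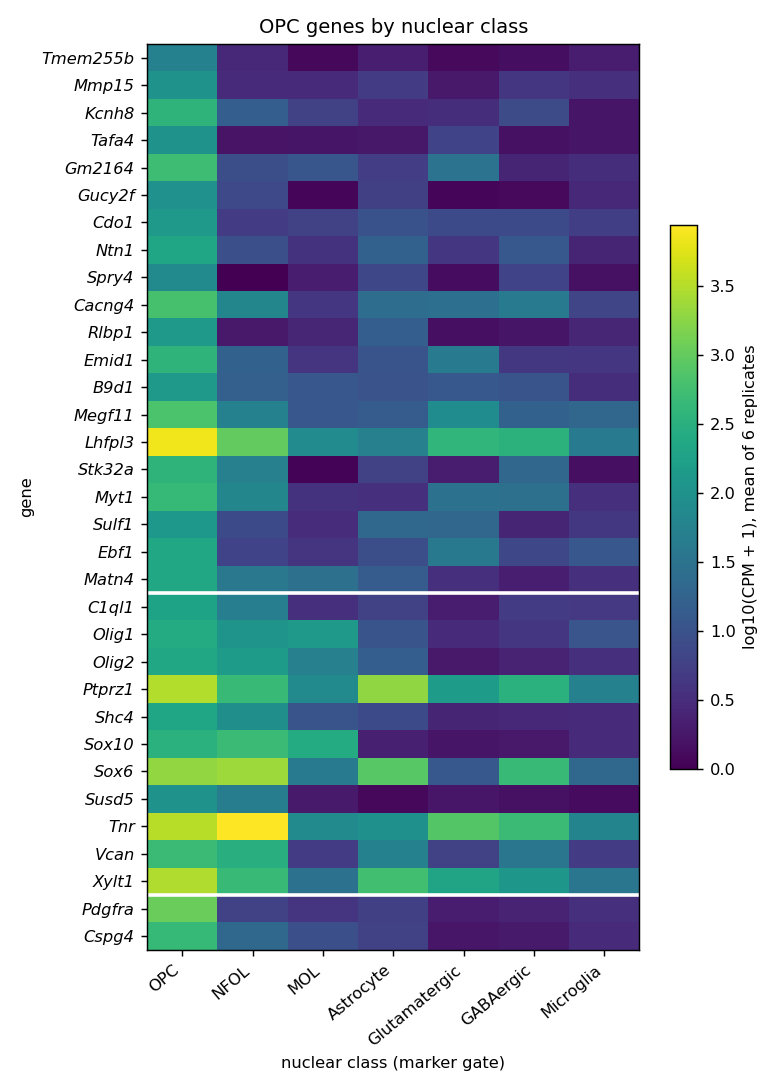
Mean level of OPC genes (rows) in the 7 gated classes (columns) as log10(CPM + 1) over 6 replicates, with the 20 leading genes at the top, the other members of the OPC identity list in the middle and the gate genes Pdgfra and Cspg4 at the bottom. The leading genes are brightest in the OPC column, whereas Sox10, Sox6 and Tnr are brighter in NFOLs.

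More genes of OPC identity separated OPCs from neurons and microglia than from NFOLs. All 14 members of the OPC identity list were counted as higher in OPCs than in glutamatergic neurons, GABAergic neurons and microglia, 12 than in astrocytes and 12 than in MOLs, but 5 than in NFOLs, and 4 than in all 6 classes. These 4 were Cacng4, Lhfpl3, Megf11 and Xylt1, the last of which starts the glycosaminoglycan chains of proteoglycans. Sox10 had 330 ± 27.6 CPM in OPCs and 476 CPM in NFOLs, and the matrix gene Tnr 3319 ± 130 and 8683 CPM. Olig2 had 225 ± 29.7 CPM in OPCs and 150 CPM in NFOLs. Ptprz1, a receptor phosphatase, and Sox6 were shared with astrocytes, at 3043 ± 152 and 1961 ± 140 CPM in OPCs and 1925 and 837 CPM in astrocytes.

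The gate genes themselves had 1081 ± 117 CPM (Pdgfra) and 430 ± 54.5 CPM (Cspg4) in OPCs, against 5.03 CPM and 20.3 CPM in NFOLs. In free RNA they had 58.6 and 32.8 CPM.

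Some glutamate receptor genes had higher levels in OPCs than in astrocytes. Of the 22 glutamate receptor genes compared with astrocytes, 8 were counted as higher in OPCs, where 9.05% of all genes were. Of 26 compared with GABAergic neurons, 1 was, a share near the 5.24% of all genes. Gria4, an AMPA receptor subunit, had 1053 ± 57.6 CPM in OPCs, 53.0 CPM in astrocytes and 2144 CPM in GABAergic neurons. Grik1, a kainate receptor subunit, had 471 ± 24.2 CPM in OPCs, 40.4 CPM in astrocytes and 1287 CPM in GABAergic neurons. The metabotropic receptor Grm5 had 1082 ± 51.5 CPM in OPCs and 2337 CPM in glutamatergic neurons. The A-type potassium channel Kcnd2 was highest in OPCs, with 4189 ± 290 CPM against 1450 CPM in astrocytes. Grin2a, an NMDA receptor subunit of mature neurons, had 52.6 ± 16.1 CPM in OPCs, below its 684 CPM in free RNA.

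The OPC share of nuclei was lower in each aplCoA replicate than in any pplCoA replicate. It was 4.28%, 6.04% and 5.37% in the aplCoA replicates and 7.21%, 7.52% and 8.75% in the pplCoA replicates. The means were 5.23 ± 0.888% (SD, n = 3) and 7.83 ± 0.815% (SD, n = 3), a difference of -2.60 percentage points (p = 0.1 in a two-sided exact permutation test, where 3 against 3 replicates cannot give less). Among nuclei of the oligodendrocyte lineage alone, OPCs made up 58.2 ± 4.25% and 75.2 ± 9.51% (exact permutation test, two-sided, p = 0.1). With at least 5 UMIs of Pdgfra and Cspg4 the domains overlapped, and the difference was -1.20 percentage points (exact permutation test, two-sided, p = 0.2). With the gate applied after thinning to 2000 UMIs it was -1.46.

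**Figure D2:**
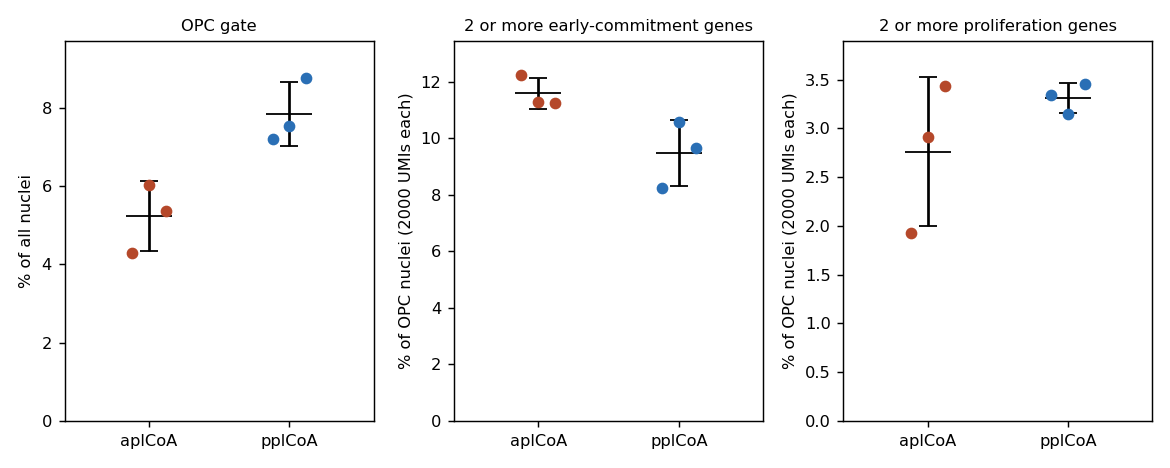
Percent of nuclei in each replicate (points), with the mean and SD of 3 replicates (bars), for the OPC gate, for OPCs with 2 or more early-commitment genes and for OPCs with 2 or more proliferation genes. OPC shares lie between 4.28% and 6.04% in aplCoA and between 7.21% and 8.75% in pplCoA, whereas the shares of proliferation genes overlap.

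Few OPCs had transcripts of several cell-cycle genes. After each nucleus was thinned to 2000 UMIs, which left out 79 shallower OPCs (27 of aplCoA and 52 of pplCoA), the share with at least 2 genes of a proliferation list of 18 was 1.93%, 2.91% and 3.44% in aplCoA and 3.34%, 3.15% and 3.45% in pplCoA. The domains overlapped, with means of 2.76 ± 0.765% and 3.31 ± 0.155% (SD, n = 3; exact permutation test, two-sided, p = 0.3). Among OPCs with at least 5 UMIs of Pdgfra and Cspg4, it was 1.97%, 2.49% and 3.02% in aplCoA and 3.59%, 3.35% and 3.63% in pplCoA, without overlap, and the difference was -1.03 in place of -0.555 percentage points (p = 0.1, exact, the smallest that 3 against 3 can give). The same share was 1.45 ± 0.358% in astrocytes (median depth 3877 UMIs) and 0.541 ± 0.122% in glutamatergic neurons (14547.5 UMIs), which stand as background. Without thinning it was 7.08% and 7.10% in the OPCs of the 2 domains, 5.15 ± 0.884% in astrocytes and 16.2 ± 1.66% in glutamatergic neurons, so that at full depth the share of OPCs lay above that of astrocytes and below that of the more deeply read glutamatergic neurons. This rule took 20 to 54 OPCs a replicate at full depth.

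Early commitment to the oligodendrocyte fate was read from Gpr17, Bmp4, Neu4 and 9630013A20Rik. At 2000 UMIs, the share of OPCs with at least 2 of these 4 genes was 12.2%, 11.3% and 11.3% in aplCoA and 8.24%, 10.6% and 9.65% in pplCoA, without overlap. The means were 11.6 ± 0.551% and 9.49 ± 1.17% (SD, n = 3), with p = 0.1 in the same exact permutation test, which this design cannot go below. With library 1 alone for aplCoA replicate 1, the domains overlapped, the difference being 0.845 percentage points (p = 0.3, exact). With library 2 alone the difference was 3.41 and without thinning 8.09 percentage points, both without overlap. They overlapped also among OPCs with at least 5 UMIs of Pdgfra and Cspg4, the difference being 2.13 percentage points (p = 0.2, exact). The share was 0.121 ± 0.136% in astrocytes (median depth 3877 UMIs) and 70.8 ± 7.70% in NFOLs, and, without thinning, 30.2 ± 5.28% in OPCs. Of the 4 genes, Neu4, given below, differed in the direction of the share. In contrast, 9630013A20Rik had means of 64.7 CPM in aplCoA and 78.6 CPM in pplCoA (log2 fold change -0.31 ± 0.13, edgeR, adjusted p = 0.188).

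At full depth, this rule took 95 to 237 OPCs a replicate, whose levels are a description for which no test was run. Bcas1, a gene of differentiating oligodendrocytes, had 541 ± 94.0 CPM in them, 454 CPM in the other OPCs and 4896 CPM in NFOLs. Bmp4 itself stayed at 2.83 ± 1.43 CPM, against 282 CPM in NFOLs. The nuclei are named here by their genes and not as a separate stage.

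The main question was which OPC genes differed between aplCoA and pplCoA. UMIs were summed over the OPC nuclei of each replicate and 6500 genes with a UMI in at least 10% of the OPC nuclei of a domain were tested by edgeR's quasi-likelihood test, with Benjamini-Hochberg adjustment over all of them. A gene near the detection minimum could be kept through the domain where it was higher. A gene was called at an adjusted p under 0.05. In aplCoA, 225 genes were higher (3.46% of those tested) and 143 lower (2.2%), whereas 21.8% of all genes tested had domains that did not overlap and 19.1% had an unadjusted p under 0.05. The 143 include 1 gate gene, Cspg4. Its UMIs chose the nuclei, so its place in this count is not a result, and no test is given for it. Without aplCoA replicate 1 the calls fell from 368 to 81, of which 32 were higher and 49 lower, so that the balance of directions turned, and with library 2 alone for that replicate to 84, of which 35 were higher and 49 lower. With library 1 alone there were 107 calls (56 higher, 51 lower), and without pplCoA replicate 2 there were 88 (43 higher, 45 lower). DESeq2 called 204 genes (103 higher, 101 lower). In bulk sums of this kind, fewer nuclei of a subtype and less RNA per nucleus cannot be told apart.

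Genes of mitochondria and ribosomes were higher in aplCoA and are given first. All 8 mitochondrially encoded genes tested were called higher, with a median log2 fold change of 0.97, as were 45 of 111 ribosomal protein genes (median 0.49) and 24 of 81 nuclear genes of oxidative phosphorylation (median 0.49), where the median of all genes was 0.01. None was called lower. Without aplCoA replicate 1 the calls in these sets fell to 3, 4 and 4, with median log2 fold changes of 0.67, 0.37 and 0.30. Without pplCoA replicate 2 they fell to 5, 10 and 10. With library 1 alone for aplCoA replicate 1 there were 4, 10 and 10 calls, and with library 2 alone 3, 6 and 6. Mitochondrial transcripts made up 0.0742%, 0.0624% and 0.0514% of OPC UMIs in aplCoA and 0.0354%, 0.0299% and 0.0304% in pplCoA, and 0.298%, 0.434% and 0.387% of free RNA in aplCoA and 0.0978%, 0.232% and 0.312% in pplCoA.

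Beyond these genes and the gate genes, 148 genes were higher and 142 lower in aplCoA out of 6297. Without aplCoA replicate 1 these counts were 21 and 49, and without pplCoA replicate 2 they were 18 and 45. With a detection minimum of 1% in place of 10%, they were 107 and 144 among the same genes. Most of the first were short coding genes and most of the second antisense RNAs. Of the genes higher in aplCoA, 145 were protein-coding, with a median span of 7331 bp, where the median gene tested spanned 50689 bp. Of the genes lower in aplCoA, 46 were protein-coding (32.4%, against 93.4% of the genes tested), 77 were annotated as antisense RNAs, 10 as lincRNAs and 9 as processed transcripts. On the strand opposite to a protein-coding gene lay 115 of the 142 lower genes (81.0%), 28 of the 148 higher genes (18.9%) and 23.8% of all genes tested. Whether the counting used strand is not stated in the sources used here, so reads of such a gene and of its partner may not be told apart.

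The higher genes were mostly more abundant in free RNA than in OPCs. By means over both domains, 11 (7.43%) of the 148 genes higher in aplCoA had a higher CPM in OPCs than in free RNA. This held for 53.0% of all genes tested and 123 (86.6%) of the 142 lower genes. The median log2 ratio of OPC to free RNA was -1.83 for the higher genes, 1.04 for the lower genes and 0.06 for all genes. Within free RNA, the median log2 ratio of aplCoA to pplCoA was 0.08 for the higher genes, -0.42 for the lower genes and -0.03 for all genes. In OPCs the median log2 fold change was 0.66 for the higher genes and -0.62 for the lower genes. The part of free RNA in the differences was not tested.

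**Figure D3:**
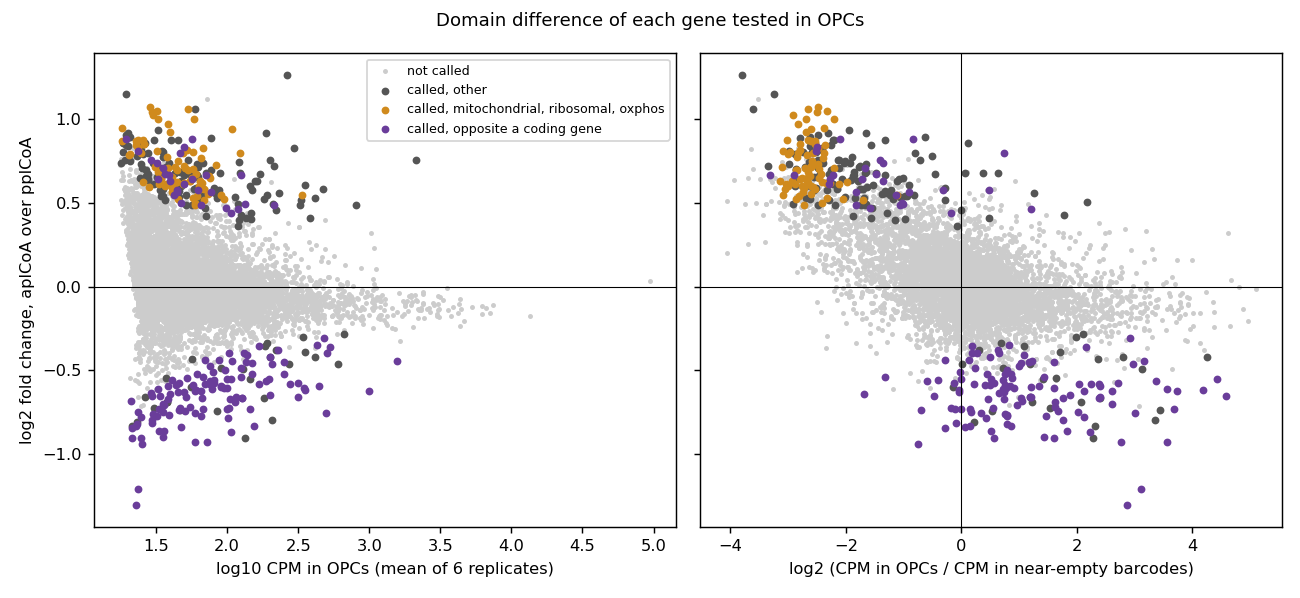
Log2 fold change of aplCoA over pplCoA in OPCs for each gene tested (points), against log10 CPM in OPCs (left) and against the log2 ratio of CPM in OPCs to CPM in near-empty barcodes (right), with called genes coloured by kind. The vertical line marks equal levels. Called genes that were higher in aplCoA lie mostly left of it, where free RNA exceeds OPCs, and those opposite a coding gene lie mostly below 0.

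The largest rise by the naming rule was that of Ptgds, which encodes prostaglandin D synthase, an enzyme of leptomeninges and oligodendrocytes (chromosome 2, 25466709 to 25470046, GRCm38). It had 316, 495 and 322 CPM in the aplCoA replicates and 188, 148 and 114 CPM in the pplCoA replicates. Its log2 fold change was 1.26 ± 0.16 (SE; edgeR, adjusted p = 0.000136). The naming rule kept only genes whose domains did not overlap, so the lack of overlap in the genes it named was fixed beforehand. Free RNA held 4651 CPM of Ptgds in aplCoA and 2701 CPM in pplCoA, more than the OPCs, and its log2 fold change was 1.11 in glutamatergic neurons and 0.84 in astrocytes. The 5 fibroblast markers outside the gates summed to 40.3 to 89.5 CPM in the OPCs of aplCoA and 11.5 to 27.8 CPM in those of pplCoA, and their part in this difference was not tested.

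The other 11 genes named by the rule for the largest rises were Btf3, Tuba1a, Vps28, Dhrs7, Ndn, Chchd2, Cfl1, Ywhab, Nars, Ran and Tubb3. They encode, among others, tubulins (Tuba1a, Tubb3), the actin-severing protein cofilin (Cfl1), a nuclear transport GTPase (Ran) and a tRNA synthetase (Nars). Their log2 fold changes ran from 0.86 for Tubb3 to 0.94 for Btf3. Tuba1a had 293, 274 and 181 CPM in aplCoA and 111, 122 and 154 CPM in pplCoA (log2 fold change 0.92 ± 0.15, edgeR, adjusted p = 0.0012). All 11 had a higher mean CPM in free RNA than in OPCs, Dhrs7 by the least, with 31.3 CPM in free RNA. Chchd2, Cfl1 and Nars, like Ptgds, stayed called without any 1 replicate and with either library alone for aplCoA replicate 1. Without aplCoA replicate 1, the adjusted p (edgeR) was 0.317 for Vps28, 0.0746 for Dhrs7, 0.148 for Ndn, 0.0525 for Ywhab, 0.208 for Ran and 0.404 for Tubb3, and without pplCoA replicate 2, Vps28, Dhrs7, Ndn, Ran and Tubb3 lost their call too.

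Among chaperones, 5 of the 8 members tested were called higher and 0 lower, with a median log2 fold change of 0.50 beside 0.01 for all genes tested, of which 3.46% were called higher. Hspa8, a constitutive Hsp70, had 297, 241 and 213 CPM in aplCoA and 117, 155 and 170 CPM in pplCoA (log2 fold change 0.76 ± 0.13, edgeR, adjusted p = 0.00198). The cytosolic Hsp90 gene Hsp90aa1 had 192, 168 and 182 CPM against 122, 107 and 127 CPM (0.57 ± 0.10, adjusted p = 0.00198). Hsp90ab1, Dnaja1 and the mitochondrial Hspd1 also rose, by 0.49, 0.47 and 0.71. Hspa5, a chaperone of the endoplasmic reticulum, was not called (0.44, adjusted p = 0.059), and neither were Hsph1 and Hspe1. Free RNA held 872 CPM of Hspa8, and its log2 fold change in glutamatergic neurons was 1.31. Without aplCoA replicate 1, 2 of the 8 were called, as without pplCoA replicate 1, without pplCoA replicate 2 and by DESeq2, and with library 1 or library 2 alone for aplCoA replicate 1, 2 and 1 were. Without aplCoA replicate 2, 3 were.

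In all, 11 genes were higher in aplCoA and, by means over both domains, more abundant in OPCs than in free RNA. They were singled out after their values were seen. They were Metrn, G0s2, Hes5, Fabp7, S100a13, S100b, Qpct, Traf4, Ccnd1, Tmem100 and Cd9. Within pplCoA, Hes5, Metrn and S100a13 were less abundant in OPCs than in free RNA, at 94.5 against 107 CPM, 13.2 against 18.0 CPM and 33.3 against 43.7 CPM. The others of the 11 were more abundant in OPCs there too, G0s2 and Fabp7 only just. The count of such genes was 0 with library 1 alone for aplCoA replicate 1, 3 with library 2 alone or without that replicate, 5 without aplCoA replicate 2, 17 without aplCoA replicate 3, and 4, 1 and 25 without pplCoA replicate 1, 2 or 3. Hes5, a transcriptional repressor and Notch target (chromosome 4, 154960923 to 154962371), had 133, 159 and 169 CPM in aplCoA and 75.2, 95.6 and 113 CPM in pplCoA, without overlap (log2 fold change 0.68 ± 0.13, edgeR, adjusted p = 0.005). In free RNA it had 85.0 CPM in aplCoA and 107 CPM in pplCoA, in the reverse order. In astrocytes, which also express Hes5, its log2 fold change was -0.07 ± 0.19, and the test of the difference between OPCs and astrocytes gave 0.77 ± 0.15 (edgeR, adjusted p = 0.139), so that a difference between the classes was not called. The change of Hes5 was called without any 1 replicate but not with library 1 alone for aplCoA replicate 1 (edgeR, adjusted p = 0.118).

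Fabp7, a fatty acid binding protein of glial precursors, had 94.8, 112 and 123 CPM in aplCoA and 50.8, 63.4 and 89.8 CPM in pplCoA (0.68 ± 0.16, edgeR, adjusted p = 0.0157). Ccnd1, which encodes cyclin D1 and drives entry into the cell cycle, had 141, 144 and 133 CPM against 102, 80.1 and 112 CPM (0.46 ± 0.12, adjusted p = 0.0203). S100b, a calcium-binding protein of glia, had 63.6, 75.2 and 90.7 CPM against 56.1, 34.5 and 56.4 CPM (0.58 ± 0.17, adjusted p = 0.0448). In all 3 genes the aplCoA replicates lay above the pplCoA replicates. Ccnd1 and S100b overlap a coding gene on the opposite strand. Free RNA of Fabp7 and Ccnd1 was lower in aplCoA than in pplCoA, at 47.7 and 66.7 CPM for Fabp7 and 45.4 and 56.7 CPM for Ccnd1, whereas that of S100b was higher in aplCoA, at 46.3 and 43.2 CPM. Without pplCoA replicate 2 the adjusted p (edgeR) was 0.0929 for Fabp7, 0.14 for Ccnd1 and 0.235 for S100b. Fabp7 also lost its call without pplCoA replicate 1 (0.106), Ccnd1 without aplCoA replicate 1 (0.107) or 2 (0.0574), and S100b without aplCoA replicate 1 (0.0535), 2 (0.0817) or 3 (0.159). The other 7 of the 11 genes each lost their call without 1 or more replicates, pplCoA replicate 2 among them.

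**Figure D4:**
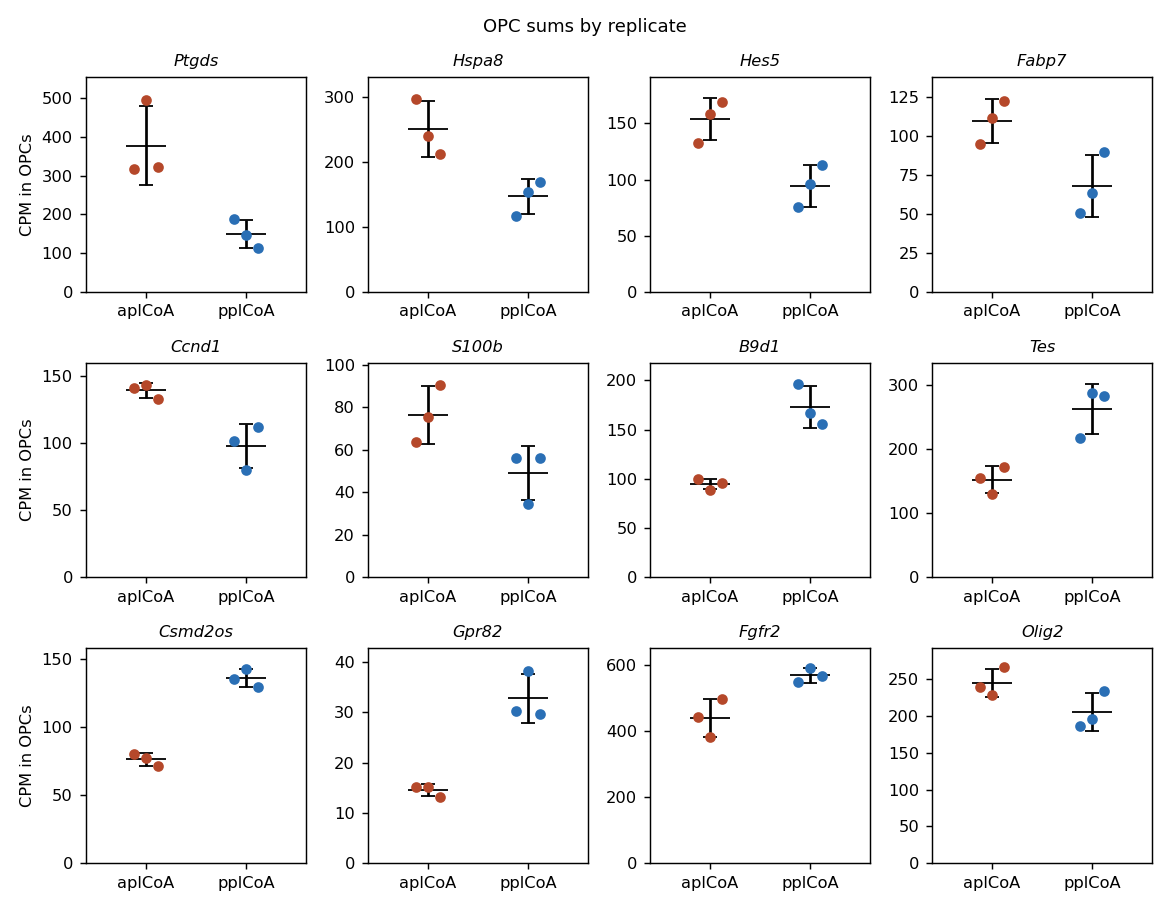
CPM in the summed OPC nuclei of each replicate (points) for 12 genes, with the mean and SD of 3 replicates per domain (bars). Ptgds, Hspa8, Hes5, Fabp7, Ccnd1 and S100b were called higher in aplCoA, B9d1, Tes, Csmd2os, Gpr82 and Fgfr2 lower, and Olig2 was not called (edgeR, adjusted p = 0.217).

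Among the genes that were lower in aplCoA, B9d1 was the one named that does not lie opposite a coding gene. It encodes a protein of the ciliary transition zone (chromosome 11, 61505144 to 61512931) and is among the 20 leading OPC genes above. B9d1 had 99.4, 88.9 and 95.8 CPM in aplCoA and 196, 167 and 156 CPM in pplCoA (log2 fold change -0.90 ± 0.11, edgeR, adjusted p = 0.000112). Free RNA held 24.3 and 30.4 CPM. In glutamatergic neurons B9d1 had 10.5 CPM in aplCoA and 11.7 CPM in pplCoA, below its level in free RNA. Its log2 fold change there was -0.21, and the change differed between the classes by -0.71 (interaction in edgeR, adjusted p = 0.0306).

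The other genes named for the largest falls were Gm15910, Gpr82, 4930567K12Rik, 4930447A16Rik, Prss48, Gm29994, Gm20319, Gm12227, Csmd2os, Gm15601 and Gm43507. All 11 lay opposite a coding gene. Gpr82, an orphan receptor gene within Cask on chromosome X, had 15.1, 15.2 and 13.1 CPM in aplCoA and 30.3, 38.4 and 29.7 CPM in pplCoA (-1.21 ± 0.20, edgeR, adjusted p = 0.0013). Csmd2os, antisense to Csmd2 (chromosome 4, 128133523 to 128166967), had 80.3, 77.5 and 71.3 CPM against 135, 143 and 130 CPM (-0.87 ± 0.11, adjusted p = 0.000125). Prss48, opposite Sh3d19, had 55.3, 50.1 and 45.5 CPM against 83.8, 109 and 90.8 CPM (-0.92 ± 0.13, adjusted p = 0.000473). In all 3 genes the domains did not overlap, which the naming rule required. The log2 fold changes in glutamatergic neurons were -1.08 for Gpr82, -0.61 for Csmd2os and -1.20 for Prss48. These 3 genes, B9d1, Gm15910 and Gm15601 stayed called without any 1 replicate and with either library alone for aplCoA replicate 1. Without pplCoA replicate 2, the adjusted p (edgeR) was 0.11 for 4930567K12Rik, 0.133 for Gm29994, 0.0689 for Gm20319 and 0.0721 for Gm43507, and without aplCoA replicate 1 it was 0.122 for 4930567K12Rik, 0.11 for Gm29994 and 0.0793 for Gm43507.

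Of the 142 lower genes, 27 had no coding gene on the opposite strand, and these too were looked at after their values were seen. Without aplCoA replicate 1 there were 8 such genes, without pplCoA replicate 2 there were 7, and with library 1 or library 2 alone for aplCoA replicate 1 there were 7 and 9. Tes, a focal adhesion protein gene, had 155, 130 and 171 CPM in aplCoA and 218, 287 and 283 CPM in pplCoA (-0.80 ± 0.12, edgeR, adjusted p = 0.000473). Fgf1, a fibroblast growth factor, had 67.9, 59.3 and 63.4 CPM against 98.3, 117 and 101 CPM (-0.74 ± 0.12, adjusted p = 0.000957). The sphingosine-1-phosphate receptor gene S1pr3 fell by 0.73 on the log2 scale, from a mean of 37.7 CPM in pplCoA to 23.2 CPM in aplCoA. Tes and Fgf1 stayed called without any 1 replicate and with either library alone for aplCoA replicate 1. S1pr3 was not called without aplCoA replicate 1 (edgeR, adjusted p = 0.0501), without pplCoA replicate 1 (0.111) or 2 (0.078), or with library 1 alone (0.0632). Tes had log2 fold changes of -0.71 in glutamatergic neurons and -0.62 in astrocytes, and Fgf1 had 0.00 and -0.46. The change of Fgf1 was not called as different between OPCs and glutamatergic neurons (-0.76 ± 0.21, interaction in edgeR, adjusted p = 0.0911).

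In the main test, genes of OPC identity gave no calls. Of the 14 members, 0 were called by edgeR, 3 had an unadjusted p under 0.05 and 0 were called by DESeq2, with a median log2 fold change of -0.06. Over all genes tested, the share at an unadjusted p under 0.05 was 19.1%, against which the counts of this kind here and in the lists that follow are to be read. Without the highest doublet scores, without pplCoA replicate 3 or with no filter on low counts, 1 of the 14 was called higher. With a gate of at least 2 UMIs of Pdgfra and Cspg4, 1 was called lower. Olig1 had 297, 330 and 294 CPM in aplCoA and 215, 180 and 295 CPM in pplCoA, where the highest pplCoA replicate reached the aplCoA replicates (0.38 ± 0.13, edgeR, adjusted p = 0.0889). Megf11 had 595, 638 and 610 CPM against 726, 678 and 747 CPM, without overlap (-0.26 ± 0.08, adjusted p = 0.0695). Lhfpl3, the member with the highest level, had means of 6758 and 7363 CPM (-0.16 ± 0.08, adjusted p = 0.329).

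The gate genes are given as values. Pdgfra had 1059, 1269 and 1097 CPM in aplCoA and 939, 984 and 1139 CPM in pplCoA, with overlap. Cspg4 had 397, 406 and 357 CPM against 476, 436 and 506 CPM, without overlap.

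The other lists held few calls. Of 22 transcription factors tested, 0 were called (6 at an unadjusted p under 0.05, 0 by DESeq2). Among them, Sox6, which had the highest CPM, had a log2 fold change of -0.06. Of this list, 1 was called higher without the highest doublet scores, without pplCoA replicate 3 or with no filter on low counts. Of 9 growth factor receptors, Fgfr2 was called lower, with 443, 383 and 498 CPM in aplCoA and 548, 593 and 569 CPM in pplCoA (-0.40 ± 0.09, edgeR, adjusted p = 0.0143), and Erbb4, which had the highest CPM, was not (-0.13, adjusted p = 0.469). In the annotation used here, Fgfr2 spans other coding genes on both strands, so its count may be uncertain. Fgfr2 had 419 CPM in free RNA and 1526 CPM in astrocytes, where its log2 fold change was -0.52. In OPCs, Fgfr2 was not called without aplCoA replicate 1 (edgeR, adjusted p = 0.0531), aplCoA replicate 2 (0.056) or pplCoA replicate 2 (0.0914). Of 15 genes tested from a list of adaptors, feedback regulators and target genes of the MAP kinase cascade, only the cyclin gene Ccnd1 was called, which is neither an adaptor nor a feedback regulator. The adaptor Shc3, which had the highest CPM, was not called (-0.11, adjusted p = 0.594). Of 16 genes of the Notch, Wnt and BMP pathways, Hes5 alone was called, and Maml2, which had the highest CPM, was not (-0.17, adjusted p = 0.276).

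Among the lists of transmitter receptors, ion channels, matrix, guidance and synaptic adhesion genes, only the last held a call by edgeR's quasi-likelihood test. Of 21 glutamate receptor genes, 0 were called (3 at an unadjusted p under 0.05, 0 by DESeq2), as of 10 GABA receptor genes (0 and 0), 20 ion channels (2 and 0), 19 genes of the matrix and its proteoglycans (3 and 0) and 23 guidance receptors and ligands (5 and 0). By edgeR's likelihood ratio test, which called 474 genes in all, 1 of the guidance genes and 2 of the synaptic adhesion genes were called, and 0 in the other 4 of these lists. The members with the highest CPM had log2 fold changes of -0.09 for the GABA receptors (Gabrg3), -0.16 for the ion channels (Kcnd2), -0.23 for the matrix genes (Gpc5) and -0.19 for the guidance genes (Dcc). Of 40 synaptic adhesion genes, Cntnap2 alone was called higher, by edgeR and not by DESeq2, with 199, 157 and 246 CPM in aplCoA and 166, 110 and 101 CPM in pplCoA, which overlapped (0.63 ± 0.15, edgeR, adjusted p = 0.0179). Cntnap2 had 1219 CPM in free RNA and 1545 CPM in glutamatergic neurons, and was not called in OPCs without aplCoA replicate 1 (edgeR, adjusted p = 0.0861) or pplCoA replicate 2 (0.126). Guidance genes included Ephb2, with 35.5, 31.9 and 38.4 CPM against 48.4, 49.5 and 47.0 CPM (-0.47 ± 0.14, adjusted p = 0.0506).

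Genes of commitment and myelin gave 0 calls of 9 and of 3 tested by edgeR's quasi-likelihood test (5 and 1 at an unadjusted p under 0.05, 0 and 0 by DESeq2). Its likelihood ratio test called 2 of the 9 and 0 of the 3. Neu4, a sialidase, had 173, 177 and 163 CPM in aplCoA and 122, 127 and 147 CPM in pplCoA (0.34 ± 0.10, edgeR, adjusted p = 0.0512). The calcium release channel Itpr2 had 397, 407 and 391 CPM against 479, 460 and 467 CPM (-0.27 ± 0.08, adjusted p = 0.0527). The domains did not overlap in either gene, with opposite signs within the list. Immediate early genes (0 of 4), cholesterol and fatty acid synthesis (0 of 8), neuromodulator and hormone receptors (0 of 11) and proliferation (0 of 1) gave no calls by edgeR's quasi-likelihood test or DESeq2, with 3, 1, 2 and 0 genes at an unadjusted p under 0.05. By the likelihood ratio test, 2 of the 4 immediate early genes were called and 0 in the other 3 lists.

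Among markers of other cell types, 1 was called. Nrgn, a postsynaptic protein of glutamatergic neurons, had 133, 55.5 and 55.4 CPM in aplCoA and 61.8, 20.6 and 28.7 CPM in pplCoA, with overlap (1.06 ± 0.30, edgeR, adjusted p = 0.0419), and was not called by DESeq2. In free RNA it had 844 and 608 CPM. Nrgn was not called without aplCoA replicate 1 (edgeR, adjusted p = 0.54), pplCoA replicate 2 (0.222) or pplCoA replicate 3 (0.0741). The markers of astrocytes (0 of 4), oligodendrocytes (0 of 2), GABAergic neurons (0 of 2) and microglia (0 of 2) were not called by either tool, with 1, 0, 0 and 0 at an unadjusted p under 0.05, and those of fibroblasts and vessels were below the detection minimum.

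**Figure D5:**
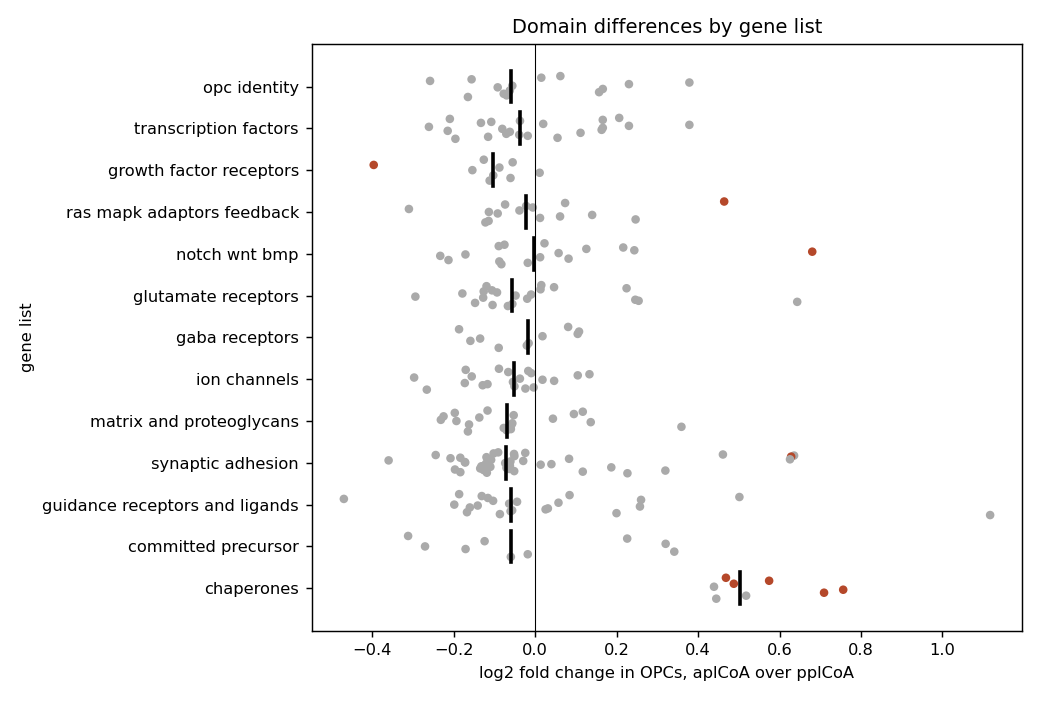
Log2 fold change of aplCoA over pplCoA in OPCs for the tested members of 13 gene lists (points; red where called at an adjusted p under 0.05), with the median of each list (bars). The chaperones lie to the right as a group, with a median of 0.50, while the medians of the other 12 lists lie at or just below 0.

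Whether OPCs shared the domain differences of neurons was tested as an interaction of class and domain over the same replicates. Of 6140 genes kept in both classes, the change differed between OPCs and glutamatergic neurons for 147 (2.39%), of which 41 were more positive and 106 more negative in OPCs. Of the 147, 115 were called in glutamatergic neurons and 9 in OPCs. The count was 61, 93 and 97 without aplCoA replicate 1, 2 or 3, and 371, 39 and 80 without pplCoA replicate 1, 2 or 3.

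The genes with the smallest p included 3 transcription factors, Ebf1, Meis1 and Pbx3, which are described here and were chosen after their values were seen. Ebf1 had 235 ± 24.4 CPM in the OPCs of aplCoA and 225 ± 29.1 CPM in those of pplCoA (SD, n = 3), against 69.7 ± 23.7 and 5.39 ± 4.38 CPM in glutamatergic neurons. The difference in log2 fold change was -3.61 ± 0.39 (edgeR, adjusted p = 0.000629). Meis1 had 73.0 ± 0.840 and 76.6 ± 2.31 CPM in OPCs and 71.6 ± 5.79 and 7.30 ± 4.62 CPM in glutamatergic neurons (-3.27 ± 0.30, adjusted p = 0.000251). Pbx3 had 72.6 ± 10.96 and 74.6 ± 7.44 CPM in OPCs and 149 ± 11.1 and 29.7 ± 11.7 CPM in glutamatergic neurons (-2.35 ± 0.18, adjusted p = 0.000145). The glutamatergic class pools neuron subtypes, so that a change within a subtype and a different mix of subtypes in the 2 domains cannot be told apart. In free RNA all 3 genes were higher in aplCoA, Ebf1 with 60.2 against 26.6 CPM, whereas in OPCs the log2 fold changes were 0.01 for Ebf1, -0.11 for Meis1 and -0.11 for Pbx3.

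Between OPCs and astrocytes, the change differed for 1 of 4950 genes (0.0202%), Slc4a10, a bicarbonate transporter of neurons. It had 180 ± 20.4 and 167 ± 27.0 CPM in OPCs (SD, n = 3) and 358 ± 91.7 and 87.3 ± 24.4 CPM in astrocytes, a difference of -1.90 ± 0.21 in log2 fold change (edgeR, adjusted p = 0.00388). An unadjusted p under 0.05 was reached by 416 genes, and DESeq2 called 4. The count was 3, 2 and 0 without aplCoA replicate 1, 2 or 3, and 12, 0 and 7 without pplCoA replicate 1, 2 or 3. The 148 genes higher in the OPCs of aplCoA had a median log2 fold change of 0.42 in astrocytes (101 tested) and 0.54 in glutamatergic neurons (135 tested), and the 142 lower genes -0.53 (91 tested) and -0.55 (127 tested), beside 0.01 in either class over all the genes tested outside the sets named above. The classes came from the same pools, so that these values share the handling of each pool and are not independent of the OPC values.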

How the data were processed

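The deposited matrices hold UMI counts per gene and barcode, which the authors made from 10x 3' libraries with Cell Ranger (5.0.0 in the submitters' processing notes, another version in the file headers) on mm10, introns included. Counts were used as deposited, with 0 per-sample columns left out. OPC counts were summed per replicate, and genes with a UMI in at least 10% of the OPC nuclei of a domain were tested by edgeR 4.0.16 (quasi-likelihood, TMM), with DESeq2 1.42.0 as an alternative. Intervals between replicates cover pools of mice, not single animals. Shares were compared by exact permutation tests. Free RNA was summed over barcodes under 100 UMIs. Doublets were scored with Scrublet in scanpy 1.11.5 and kept. Gene spans came from GENCODE M21 (GRCm38), and promoters from RefSeq. Genes named for the domains were up to 12 in each direction with the largest fold change among called genes of at least 20 CPM whose domains did not overlap, outside mitochondrial, ribosomal, oxidative phosphorylation and gate genes. The edgeR test between the domains was tried on simulated counts. The gate and the gene lists were chosen with earlier results of these data known. Some items are not reported here.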

Additional observations from a re-analysis of the deposited data

Results flagged for a closer look

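The difference in domain change between OPCs and another class, tested as an interaction in edgeR, singled out the following values. Against glutamatergic neurons it was called for 147 genes, among them Ebf1 (-3.61), Meis1 (-3.27), Pbx3 (-2.35) and B9d1 (-0.71), all on the log2 scale. Against astrocytes it was called for 1 gene, Slc4a10 (-1.90). Samples far from the rest were not looked for, since each domain had 3 replicates.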

How the results depend on the processing

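The count of OPC genes called between the domains was 368, and 606 with no filter on low counts, 204 by DESeq2 (103 higher, 101 lower), 107 and 84 with library 1 or library 2 alone for aplCoA replicate 1, 83 at an adjusted p under 0.01 and 1.5-fold, and 175 as the median of 20 draws of equal numbers of OPC nuclei (104 to 256). Leaving out 1 replicate gave 81 to 546. With the replicate block it was 330 (199 higher, 131 lower). For same-numbered samples, the deviations of log CPM from the domain mean correlated at 0.18, -0.02 and -0.07 over genes, so the numbers were not taken to pair the samples.

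The difference in OPC share was -1.20 percentage points with at least 5 gate UMIs, -17.0 among lineage nuclei and -1.46 after thinning. The difference in the share with early-commitment genes was 0.845 and 3.41 with library 1 or library 2 alone and 8.09 without thinning. Against glutamatergic neurons, leaving out 1 replicate gave 39 to 371 genes. Against astrocytes, it gave 0 to 12, and a detection minimum of 1% and DESeq2 gave 4 each. For 43 named genes over 943 pairs of gene and alternative, 766 stayed called, 177 did not and 0 reversed. Of the 43 genes, 11 stayed called under all alternatives. These genes were chosen from those called, and the alternatives reuse the same data. Requiring a Pdgfra UMI, chosen after seeing the data, gave 356 genes. The causes were not tested. The summed OPC counts ran from 1316090 to 3366590 UMIs a replicate.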
